A study of Arabidopsis thaliana with 12 samples.

Results

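Plastid-encoded ribosomal protein and RNA polymerase genes, 31 identifiers of the 28775 genes in the count files, were described in Arabidopsis rosettes after 10 min of high light. They were chosen by identifier: the plastid rps and rpl genes for proteins of the small and the large ribosomal subunit, rpoA, rpoB, rpoC1 and rpoC2 for the plastid-encoded RNA polymerase, and matK for a maturase of group II introns. The 8 identifiers in the inverted repeat, a stretch that the plastid genome carries in 2 copies, stood for 4 genes and were joined. That left 27 entries, of which rps12 makes 2: its first exon, and its 3-prime part in the repeat (ATCG00905 and ATCG01230). Each entry is counted as a gene below. All libraries came from whole rosettes of wild-type Col-0. Per the labels' protocols, plants aged 3 weeks spent 10 days at a photon flux of 8 µmol m-2 s-1. They then received 800 µmol m-2 s-1 for 10 min (HL) or stayed at 8 (LL). Ribosome footprints, the stretches of RNA that ribosomes shield from RNase, and total RNA were counted in 12 libraries, 3 for each of the 4 groups: footprints HL, footprints LL, total RNA HL and total RNA LL. Libraries carry the numbers 1 to 3 within each group.

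The chloroplast keeps its own gene expression system of bacterial type, with ribosomes that join plastid-encoded and nuclear-encoded proteins. Its bacterial-type polymerase has a plastid-encoded core, to which nuclear-encoded sigma factors and associated proteins bind. These genes supply the machinery that transcribes and translates the photosynthesis genes, and many of them are transcribed together in long clusters that resemble bacterial operons. The extraction buffer held chloramphenicol and lincomycin, which stop plastid ribosomes, beside cycloheximide, which stops cytosolic ones.

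Library totals lay between 1563427 and 17312840 counts for footprints and between 2592499 and 16660558 for total RNA. Protein-coding genes took 1162389 to 2120757 counts per footprint library and 2438348 to 16054023 per total RNA library. Levels are given as CPM, the count divided by the normalised library size and multiplied by 1000000. Mesophyll markers were abundant: RBCS1A, the small subunit of Rubisco, averaged 3830 CPM in HL footprints and 2953 CPM in LL footprints. The root marker EXPA7 had 0 counts, and the root marker PER72 and the seed marker CRA1 had 3 and 5 counts over all 12 libraries.

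Not every member could be measured. matK (ATCG00040, TAIR10 plastid genome, 2056 to 3636, minus strand) had 0 counts in all 12 libraries. Its 1581 bases lie wholly inside the span of ATCG00030 on the same strand, and the file headers show no option to count reads that overlap more than 1 gene, so the 0 says nothing of its expression. The 8 identifiers in the inverted repeat had 0 counts in the 4 footprint libraries of numbers 2 and 3. In the footprint libraries of number 1 they held 6498 counts in HL and 8799 counts in LL, which was 19.0% and 18.7% of the counts of all 31 identifiers. The 36 identifiers of the whole repeat, rRNA genes included, took 38.2% of all counts in HL footprint library 1 and 31.7% in LL footprint library 1, against less than 0.001% in the other 4 footprint libraries. A count of 0 allows at most 3 counts by counting error. Whether reads that match both copies were treated differently between the numbers was not tested.

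**Figure D1:**
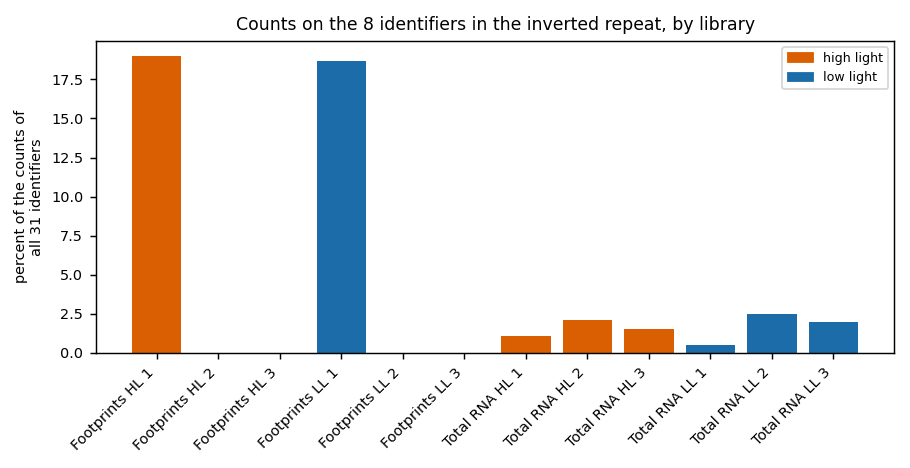
Counts on the 8 identifiers in the inverted repeat, as a percent of the counts of all 31 identifiers (vertical axis, bars starting at 0), in each of the 12 libraries (HL orange, LL blue). The footprint libraries of number 1 stand at 19.0% in HL and 18.7% in LL, those of numbers 2 and 3 at 0, and the total RNA libraries between 0.510% and 2.49%.

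The 4 repeat genes therefore have a footprint value for number 1 alone, with no replicate and no test. rpl2, a protein near the catalytic centre of the large subunit in Escherichia coli, had 1639 CPM in HL and 1984 CPM in LL, a ratio of 0.826 (95% counting interval 0.789 to 0.866). rpl23, which sits at the exit of the peptide tunnel in E. coli, had 154 CPM in HL and 278 CPM in LL, a ratio of 0.554 (0.480 to 0.638). rps7, which helps to assemble the head of the small subunit in E. coli, had 1046 CPM in HL and 925 CPM in LL, a ratio of 1.13 (1.06 to 1.20). The repeat part of rps12 (ATCG00905 and ATCG01230), which lies 53 bases from the rps7 copies, had 678 CPM in HL and 671 CPM in LL, a ratio of 1.01 (0.937 to 1.09). These intervals cover counting error only and compare 2 libraries. Footprint counts were split evenly between the copies (49.0% to 52.4% on the first copy), whereas in total RNA the first copies held 68.4% to 84.3% of the summed counts of the 8 identifiers. In total RNA, rpl2 averaged 51.1 ± 23.9 CPM in HL and 59.5 ± 41.1 CPM in LL (SD, n = 3 each). rps7 averaged 28.5 ± 7.98 CPM in HL and 33.5 ± 19.2 CPM in LL, and ATCG00905 with ATCG01230 29.5 ± 12.9 CPM in HL and 43.5 ± 35.1 CPM in LL. rpl23 had the lowest mean of these 4, at 2.84 ± 1.1 CPM in HL and 2.57 ± 0.652 CPM in LL. Outside the repeat, rps19, which follows rpl2 on the same strand, averaged 113 ± 33.2 CPM in HL and 113 ± 54.5 CPM in LL. The file headers show no option to count reads that match more than 1 place. How reads that match both copies were counted in total RNA was not tested. The levels of these 4 genes may therefore be understated and cannot be ranked against rps19.

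The other 22 members were counted in every library: 11 small-subunit proteins, 7 large-subunit proteins and the 4 polymerase subunits. Within these, 1 gene stood far above the rest. rps14 (ATCG00330, 36938 to 37240, minus strand), a protein of the small-subunit head in E. coli and cotranscribed with the photosystem I genes psaA and psaB, had 5674, 4167 and 5815 CPM of footprints in HL libraries 1, 2 and 3, against 5364, 3948 and 5380 CPM in LL libraries 1, 2 and 3. Its share of the footprints of the 22 members was 34.4% ± 10.1 in HL and 28.7% ± 6.32 in LL (SD, n = 3 each). Per kilobase of gene, footprint levels of rps14 averaged 17220 CPM in HL and 16160 CPM in LL. The next by gene span, introns included, was the separate first exon of rps12, whose protein takes part in decoding in E. coli. It had 1829 ± 362 CPM per kb in HL and 2200 ± 643 CPM per kb in LL. A gene with an intron ranks too low by this measure. The lowest was rps16 (ATCG00050), at 23.1 ± 11.5 CPM per kb in HL and 32.9 ± 7.49 CPM per kb in LL; its span of 1105 bases includes an intron, so the level per kb is understated.

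**Figure D2:**
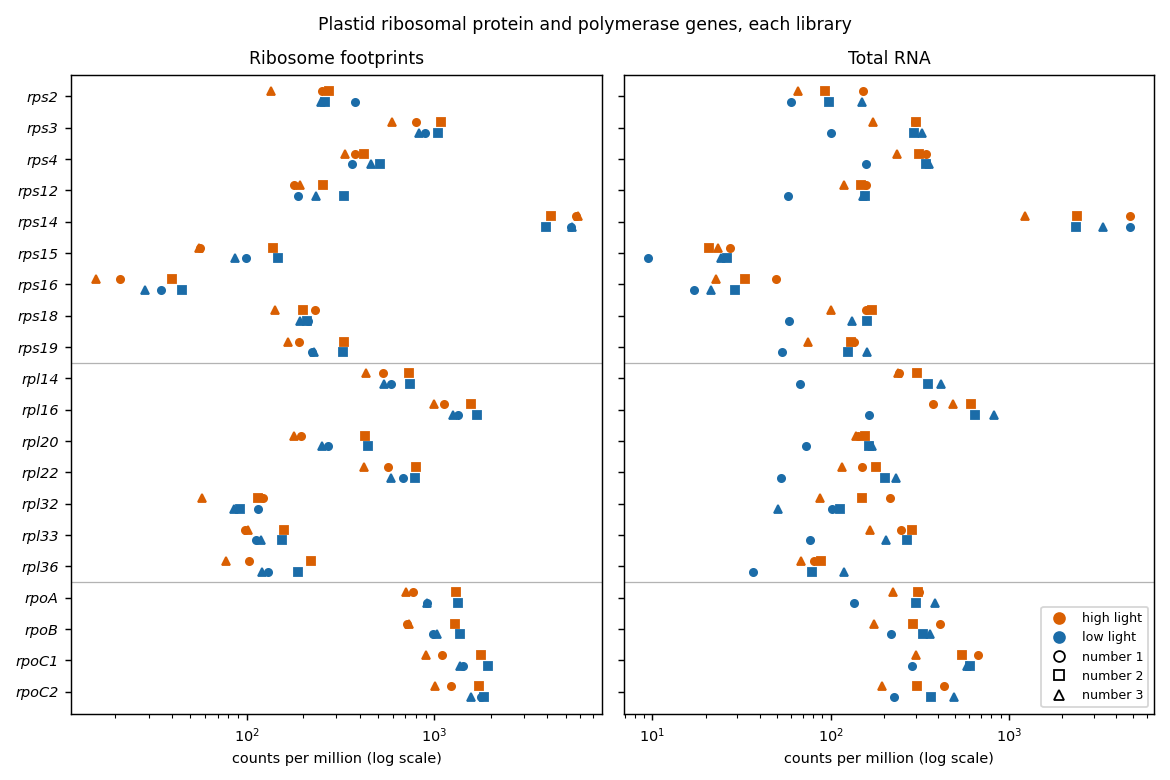
Level of 20 of the 22 members in each library, in CPM on a log axis, for footprints (left) and total RNA (right); HL points are orange and drawn above the blue LL points, and the shape gives the library number. rps14 lies above all others in both panels, and in total RNA the LL library of number 1 (blue circles) is lowest for most genes.

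In the first comparison, footprints after high light were set against footprints in low light, which asks whether these transcripts gained or lost ribosomes within 10 min. None of the 22 members passed the threshold (edgeR quasi-likelihood test, Benjamini-Hochberg adjusted p under 0.05), 0 did at an unadjusted p under 0.05, and DESeq2 called 0. Among all 10759 genes tested 0.223% passed. With the library number as a block, which pairs HL and LL libraries, some members had an unadjusted p under 0.05, all lower in HL. It was 0.000619 for rpoC2, 0.00201 for rps2, 0.00296 for rpoC1, 0.00341 for rps15 and 0.00493 for rpoB (edgeR quasi-likelihood test). For rpl20 it was 0.0169 and for rps16 0.0187. The share of all genes under 0.05 in that fit was not counted, and only rpoC2 passed after adjustment. The fitted log2 changes were negative for 20 of 22 members, with a median of -0.21, against a median of -0.003 and 50.4% negative among all genes. The median over members was -0.07 without HL library 3, -0.07 without LL library 2 and -0.49 without HL library 2. The 48 other plastid protein-coding genes outside the repeat had a median of -0.05. For 11 of 22 members the level was lower in HL within each of the 3 numbers, which held for 15.1% of all genes, and for 0 members did the HL and LL groups separate, against 4.47% of all genes that were lower and 4.63% that were higher without overlap. These members share their libraries, so the counts are not 22 separate observations. Whole rosettes were used, so levels are averages over cell types, and changes within a cell type were not tested.

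Among the small-subunit genes, the fitted footprint change lay between -0.47 (rps16) and 0.09 (rps14), with a median of -0.24. rps3 (ATCG00800, 82826 to 83482, minus strand), whose protein lines the mRNA entry of the E. coli ribosome, had 802, 1088 and 592 CPM in HL against 896, 1046 and 826 CPM in LL. HL library 3 was the lowest of the 6, the groups overlapped, and the log2 change was -0.16 ± 0.28 (SE). rps15 (ATCG01120), an early-assembling rRNA-binding protein in E. coli, had 56.3, 138 and 55.8 CPM in HL against 99.5, 148 and 86.7 CPM in LL, a log2 change of -0.41 ± 0.35 (SE). rps16 had 21.1, 39.9 and 15.7 CPM in HL against 35.1, 45.1 and 28.7 CPM in LL, a log2 change of -0.47 ± 0.33 (SE). Both were lower in HL in 3 of 3 numbers with overlapping groups, and the rps16 values rest on only 16 to 80 counts per footprint library. rps14 was higher in HL in 3 of 3 numbers, by 0.09 ± 0.26 (SE) on the log2 scale, which is inside its error. The sign depended on the scaling, since its share of protein-coding footprints was lower in HL in each number. That share was 0.496%, 0.373% and 0.511% in HL libraries 1, 2 and 3. In LL libraries 1, 2 and 3 it was 0.577%, 0.424% and 0.545%, and the groups overlapped. In 5 further genes the groups overlapped too. rps2 was at -0.42 ± 0.30, rps4, which binds rRNA early in E. coli small-subunit assembly, at -0.24 ± 0.25, and rps18 at -0.09 ± 0.25 (log2, SE). The rps12 exon was at -0.26 ± 0.28 and rps19 of the head at -0.18 ± 0.30.

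The 7 large-subunit genes had a median footprint change of -0.13. rpl16 (ATCG00790, 81189 to 82652, minus strand), a protein near the tRNA binding site in E. coli, had 1127, 1571 and 1001 CPM in HL against 1340, 1696 and 1264 CPM in LL, a log2 change of -0.22 ± 0.27 (SE). rpl22 (ATCG00810), which lines the peptide tunnel in E. coli, had 563, 797 and 423 CPM in HL against 682, 785 and 586 CPM in LL, a log2 change of -0.20 ± 0.28 (SE). rpl14, which lies at the subunit interface in E. coli, had 531, 731 and 434 CPM in HL against 588, 737 and 538 CPM in LL, a log2 change of -0.13 ± 0.27 (SE). In all 3 genes the HL and LL libraries of number 2 were the highest of their groups and the groups overlapped. The small proteins encoded by rpl33 and rpl36 and the assembly protein encoded by rpl20 had log2 differences of -0.11 ± 0.26, -0.13 ± 0.36 and -0.27 ± 0.36 (SE). rpl32 was at 122, 116 and 57.8 CPM in HL against 115, 92.4 and 85.4 CPM in LL, with a log2 change of 0.02 ± 0.29 (SE).

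The polymerase subunits had the most negative median footprint change of the 3 roles, -0.32, and each was lower in HL in 3 of 3 numbers, although no test compared the roles. rpoC2 (ATCG00170, 15938 to 20068, minus strand), which encodes the beta'' subunit, had 1231, 1736 and 1005 CPM in HL against 1765, 1840 and 1573 CPM in LL. HL libraries 1 and 3 lay below every LL library and HL library 2 did not. The log2 change was -0.38 ± 0.27 (SE, adjusted p = 1.00). With the library number as a block it was -0.42 ± 0.12 (SE, adjusted p = 0.0381), and rpoC2 was then the only member to pass, beside 0.428% of all genes that were lower in that fit. The call was lost with the block when number 1 was left out. rpoC1 (ATCG00180), for the beta' subunit, had 1103, 1766 and 908 CPM in HL against 1416, 1935 and 1370 CPM in LL, a log2 change of -0.32 ± 0.30 (SE). rpoB (ATCG00190), for the beta subunit, had 714, 1286 and 733 CPM in HL against 987, 1367 and 1034 CPM in LL, a log2 change of -0.31 ± 0.30 (SE). rpoA (ATCG00740), for the alpha subunit on which the enzyme assembles, had 772, 1302 and 708 CPM in HL against 911, 1338 and 917 CPM in LL, a log2 change of -0.19 ± 0.30 (SE). In each of these 3 genes HL library 2 exceeded LL libraries 1 and 3, so the groups overlapped.

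**Figure D3:**
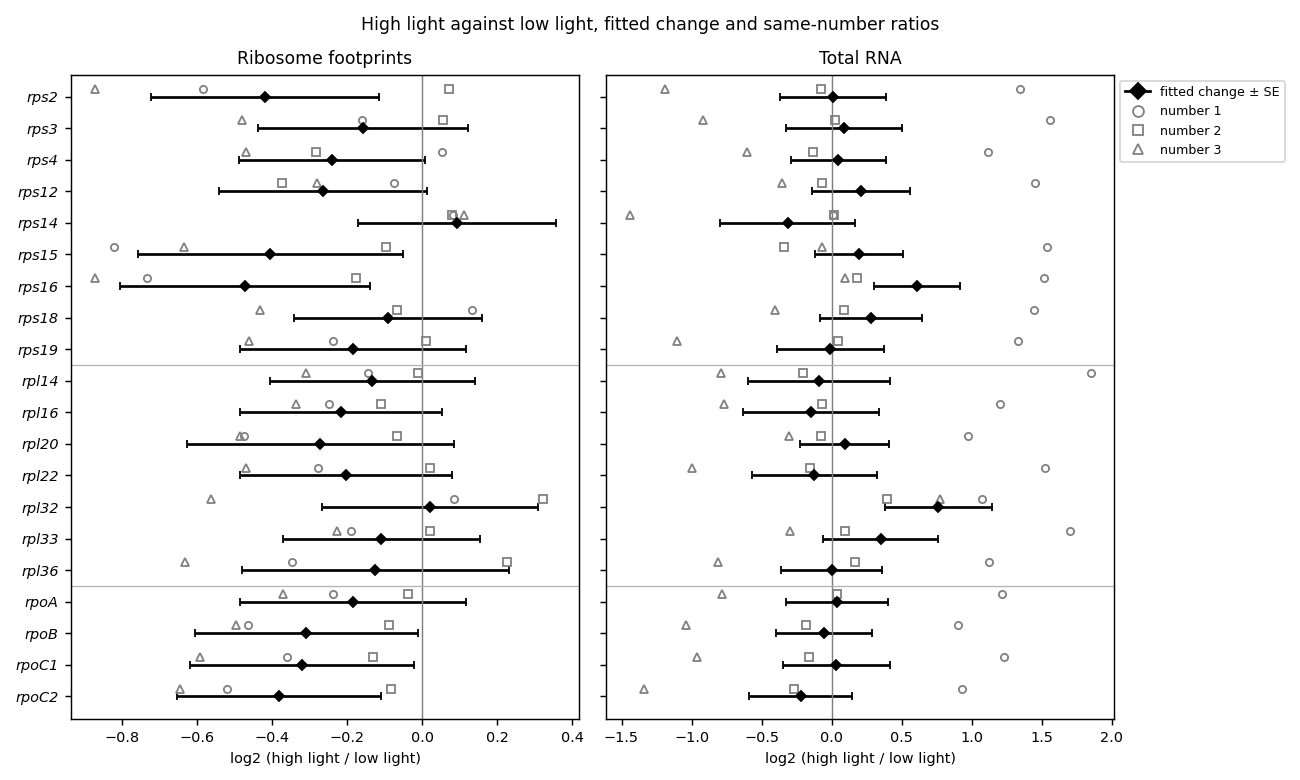
Log2 ratio of HL to LL (horizontal axes) for 20 of the 22 members in footprints (left) and total RNA (right): black diamonds with bars are the fitted change ± SE, and open grey symbols are the ratios within each library number. In footprints the diamonds of all genes shown but rps14 and rpl32 lie left of 0, down to -0.47 for rps16, and in total RNA the circles of number 1 lie well to the right of the symbols of numbers 2 and 3, except for rps14 and rpl32.

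Summed, the 22 members took a smaller share of the protein-coding footprints in HL. The share was 1.31%, 1.62% and 1.21% in HL libraries 1, 2 and 3, against 1.81%, 1.98% and 1.67% in LL libraries 1, 2 and 3, and the groups did not overlap. The mean was 1.38% ± 0.21 in HL and 1.82% ± 0.16 in LL (SD, n = 3 each), and no p is given for a sum over the members. The D1 gene psbA took 22.9% ± 1.86 of the same total in HL and 10.6% ± 1.71 in LL. With psbA left out of the total the share of the members was 1.71%, 2.04% and 1.60% in HL against 2.00%, 2.19% and 1.91% in LL, and the groups overlapped. With psbA in the total, the polymerase subunits alone took 0.334%, 0.546% and 0.295% in HL against 0.546%, 0.696% and 0.496% in LL. HL library 2 lay above LL library 3, so the groups overlapped.

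The second comparison set total RNA after high light against total RNA in low light, which asks whether the amount of these transcripts changed. None of the 26 genes with counts passed (edgeR quasi-likelihood test, adjusted p under 0.05), 0 did at an unadjusted p under 0.05, and DESeq2 called 0; among all 15700 genes tested 0.236% passed. The median log2 change was 0.004, and the median over all genes was -0.006. Members ranged from -0.60 (ATCG00905 and ATCG01230, the repeat part of rps12) to 0.76 (rpl32). LL library 1 stood apart: the 21 members without rps14 took 0.412%, 0.470% and 0.437% of protein-coding counts in HL libraries 1, 2 and 3, against 0.198%, 0.509% and 0.618% in LL libraries 1, 2 and 3. Within numbers 1, 2 and 3 the median log2 ratio of HL to LL was 1.34, -0.08 and -0.83. Without LL library 1 the median over members was -0.27 and without LL library 3 it was 0.32, and 0 members passed in either fit.

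rpl32 (ATCG01020, 113449 to 113607, plus strand) was the member with the highest fitted change in total RNA. It had 215, 149 and 86.9 CPM in HL against 102, 114 and 50.7 CPM in LL. Each HL library exceeded the LL library of its number while the groups overlapped, and the log2 change was 0.76 ± 0.38 (SE, adjusted p = 1.00). With the number as a block it was 0.74 ± 0.18 (SE, adjusted p = 0.0976), in a fit where 0.822% of all genes and 0 members passed. rps16 had 49.1, 33.0 and 22.9 CPM in HL against 17.2, 29.2 and 21.4 CPM in LL, a log2 change of 0.61 ± 0.31 (SE). It too was higher in HL in 3 of 3 numbers, with overlapping groups. rps14 had 4814, 2422 and 1241 CPM in HL against 4786, 2388 and 3373 CPM in LL, a log2 change of -0.32 ± 0.48 (SE), and only number 3 differed by more than a few percent. The 4 polymerase genes lay between -0.22 (rpoC2) and 0.04 (rpoA).

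The third comparison asked whether footprints changed relative to total RNA, a measure of ribosome loading per transcript, tested in 1 model of the 12 libraries as the light effect in footprints minus that in total RNA. Of 12788 genes 0% passed (edgeR quasi-likelihood test), members included; 179 genes, 1 of them a member, had an unadjusted p under 0.05, and DESeq2 called 0 members. The median over the 22 members was -0.26, with 21 negative, against 0.02 over all genes. It rested on LL total RNA library 1: within numbers 1, 2 and 3 the median was -1.55, 0.02 and 0.38, and without that library it was 0.03, against -0.56 to -0.10 without any other single library. rps16 was the member with the unadjusted p under 0.05, at -1.09 ± 0.49 (log2, SE, adjusted p = 1.00), and its ratio was negative in 3 of 3 numbers, at -2.25, -0.36 and -0.97. rpl32 was also negative in 3 of 3 numbers, with -0.76 ± 0.52 (log2, SE). rps14 was the only member with a positive value, 0.39 ± 0.60 (log2, SE).

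The last comparisons set footprints against total RNA within each light condition, relative to the bulk of protein-coding genes, which ranks the members by footprints per transcript. In HL 3 members were higher in footprints (rpoC2, rpl22 and rps15) and 1 was lower (rpl33) at an adjusted p under 0.05 in the edgeR quasi-likelihood test; among all genes 4.72% were higher and 1.71% lower. In LL 6 members were higher (rps15, rpoC2, rpl22, rpoA, rps3 and rpoB) and 0 lower, beside 4.96% and 3.36% of all genes. Of the 48 other plastid genes, 4 were higher and 4 lower in HL, and 8 higher and 5 lower in LL. An unadjusted p under 0.05 was held by 10 members in each condition, against 2980 of all 12788 genes in HL and 3158 in LL. Among the 48 other plastid genes it was held by 22 in HL and 21 in LL. The median over the 22 members was 0.55 in HL and 0.73 in LL, against -0.03 over all genes in both, and 0.34 in HL and 0.51 in LL over the 48 other plastid genes. In HL the median over members was 0.36 without HL footprint library 2 and 0.34 without HL total RNA library 3, and 0.34 to 0.72 over all fits with 1 library left out. In LL it was 0.34 without LL total RNA library 1, and 0.34 to 1.03 over such fits. By role, the polymerase genes had medians of 1.18 in HL and 1.44 in LL. The small-subunit genes had 0.39 in HL and 0.56 in LL, and the large-subunit genes 0.39 in HL and 0.68 in LL. The kinds of library differ in preparation, aligner and strand setting, and these differences cannot be told apart from ribosome loading.

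On the scale common to all 12 libraries, rpoC2 footprints were 1025, 1461 and 840 CPM in HL, against 509, 366 and 222 CPM in HL total RNA. The footprint libraries lay above every total RNA library, and the log2 ratio was 1.60 ± 0.36 (SE, adjusted p = 0.0144). In LL, rpoC2 had 1467, 1552 and 1321 CPM of footprints against 267, 439 and 556 CPM of total RNA, a log2 ratio of 1.78 ± 0.36 (SE, adjusted p = 0.00754), again without overlap. rps15 had 46.9, 116 and 46.7 CPM of footprints in HL against 32.2, 25.0 and 26.6 CPM of total RNA, a log2 ratio of 1.33 ± 0.38 (SE, adjusted p = 0.0478). In LL it had the highest ratio of all members, with 82.7, 125 and 72.8 CPM of footprints against 11.1, 31.5 and 27.6 CPM of total RNA. The kinds did not overlap in either condition, and the LL log2 ratio was 1.94 ± 0.39 (SE, adjusted p = 0.00727). rpl22 stood at 1.5 ± 0.42 in HL (adjusted p = 0.0453) and 1.60 ± 0.42 in LL (adjusted p = 0.0312; log2, SE).

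rpoB, rpoA and rps3 had log2 ratios of 1.15 ± 0.35, 1.22 ± 0.37 and 1.19 ± 0.39 in HL (SE, adjusted p = 0.0628, 0.0598 and 0.0784), and passed in LL at 1.42 ± 0.35, 1.47 ± 0.37 and 1.46 ± 0.39 (SE, adjusted p = 0.0239, 0.0253 and 0.034). That a gene passed in one light condition and not in the other does not show a difference between them; the test of that difference above called 0 genes. At the other end, rpl33 (ATCG00640, 67488 to 67688, plus strand) had 81.5, 132 and 85.1 CPM of footprints in HL against 293, 345 and 190 CPM of total RNA. All footprint libraries lay below all total RNA libraries, and the log2 ratio was -1.47 ± 0.39 (SE, adjusted p = 0.0348). In LL it was 92.9, 131 and 100 CPM of footprints against 90.1, 321 and 232 CPM of total RNA, with overlap, a ratio of -1.00 ± 0.38 (SE, adjusted p = 0.116). rpl32 had -1.10 ± 0.38 in HL and -0.35 ± 0.38 in LL, and rps16 -0.92 ± 0.35 in HL and 0.17 ± 0.35 in LL (log2, SE).

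**Figure D4:**
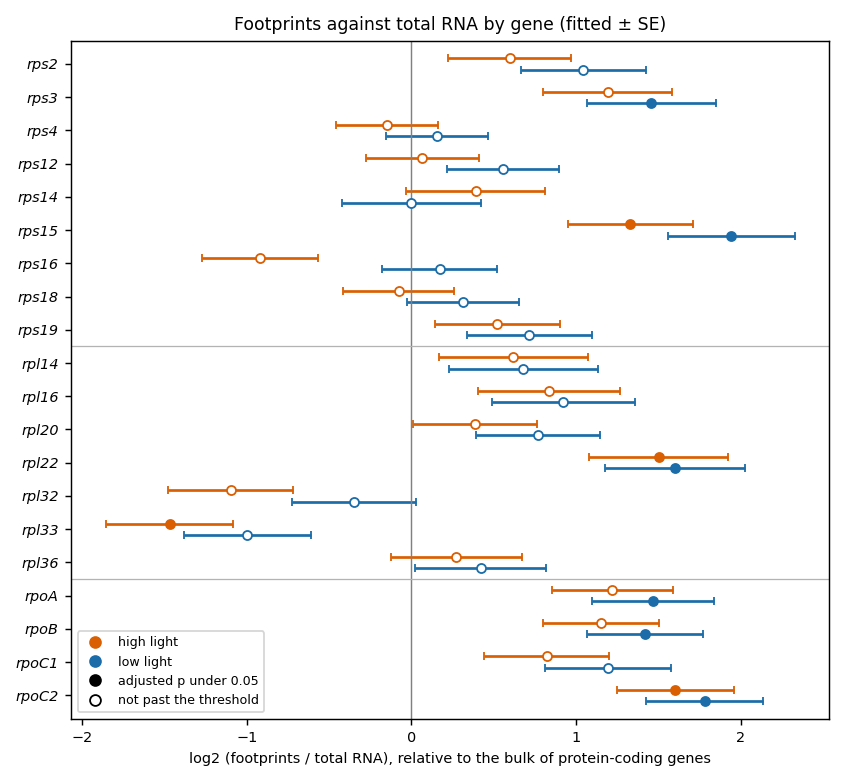
Log2 ratio of footprints to total RNA (horizontal axis) for 20 of the 22 members in HL (orange, upper) and LL (blue, lower), fitted value ± SE; filled circles passed an adjusted p under 0.05. The polymerase genes, rps3, rps15 and rpl22 lie near or above 1 in both conditions, and rpl33 lies lowest, at -1.47 in HL and -1.00 in LL.

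With the number as a block, 6 members were higher in HL (rpoB, rpoA and rps3 in addition) and 3 lower (rpl33, rpl32 and rps16), beside 8.96% and 5.31% of all genes. In LL, 8 were higher (rpoC1 and rpl16 in addition) and 1 lower (rpl33), beside 9.13% and 7.17%. The calls depended on single libraries. In HL 0 members passed without HL footprint library 2 or HL total RNA library 2, and 1 passed without HL footprint library 3, HL total RNA library 1 or 3, or LL footprint library 3. In HL 2 passed without HL footprint library 1, LL footprint library 1 or LL total RNA library 2, and 5 were higher without LL total RNA library 1. In LL 2 passed without LL footprint library 2 or 3 or LL total RNA library 2, and 3 were higher and 1 lower without LL total RNA library 1. Over these fits with 1 library left out, 1.69% to 4.82% of all genes were higher and 0.152% to 1.69% lower in HL, and 1.43% to 5.37% were higher and 0.403% to 3.15% lower in LL. When the libraries were scaled on plastid genes, 1 member was higher and 3 lower in HL, beside 1.73% and 8.34% of all genes, and 2 were higher and 1 lower in LL, beside 1.81% and 17.3%. rpoC2 and rps15 passed in LL under all 21 alternatives.

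By position, the 22 members fell into 4 clusters on 1 strand with less than 1000 bases between neighbours and 5 single genes. In gene order these were rpoB, rpoC1, rpoC2 and rps2 (15013 to 26329, minus strand); rpl33 and rps18 (67488 to 68222, plus strand); the first exon of rps12 and rpl20 (68512 to 69724, minus strand); and 9 genes from rps19 to rpoA, among them rpl22, rps3, rpl16, rpl14 and rpl36 (77901 to 84283, minus strand). Genes of 1 cluster differed in footprint level per kb. In the long cluster the footprint level by gene span, introns included, was highest for rpl14, at 1532 ± 411 CPM per kb in HL and 1683 ± 281 CPM per kb in LL. It was lowest for rps19, at 817 ± 314 CPM per kb in HL and 930 ± 207 CPM per kb in LL (SD, n = 3 each). A gene with an intron ranks too low by this measure. rpl16, with the longest span there (1464 bases), had 842 ± 204 CPM per kb in HL and 979 ± 157 CPM per kb in LL. In total RNA, rpoA at the end of the same cluster had 286 ± 51.6 CPM per kb in HL and 278 ± 129 CPM per kb in LL, while rpl14 had 710 ± 100 CPM per kb in HL and 754 ± 503 CPM per kb in LL.

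The polymerase genes differed in footprint level. rpoA had 937 ± 329 CPM per kb of footprints in HL and 1066 ± 247 CPM per kb in LL. rpoB had 283 ± 101 CPM per kb in HL and 351 ± 64.3 in LL, and rpoC2 had 321 ± 90.6 in HL and 418 ± 33.4 in LL (SD, n = 3 each). rpoC1, whose span includes an intron, had 444 ± 159 CPM per kb in HL and 555 ± 111 in LL. The rpoA values lay above those of the other 3 by more than the spread between libraries in LL. rps2, which follows rpoC2 in the same cluster by position and encodes a small-subunit protein, had 310 ± 105 CPM per kb of footprints in HL and 416 ± 98.4 CPM per kb in LL, within the spread of rpoC2.

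**Figure D5:**
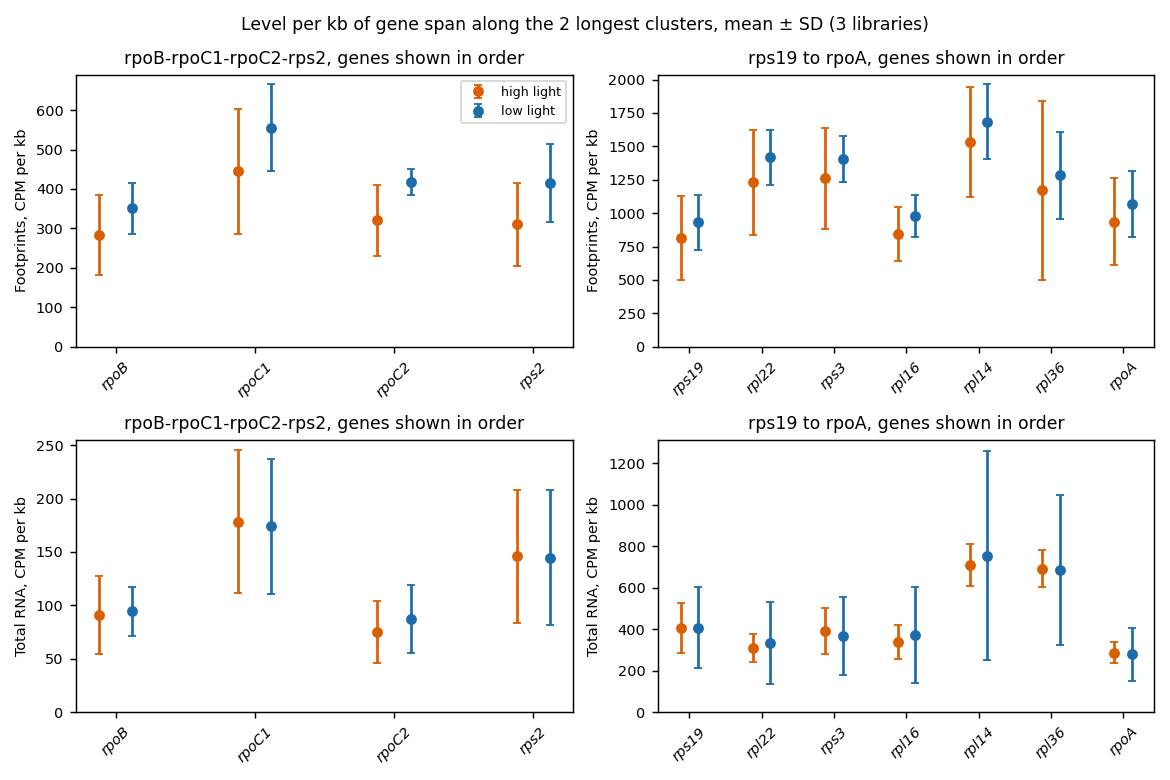
Footprint level (top) and total RNA level (bottom), in CPM per kilobase of gene span, for the genes of the polymerase cluster (left) and 7 genes of the rps19 to rpoA cluster (right) in gene order; points are the mean and bars the SD of 3 libraries, HL orange and LL blue. rpoA, at the end of the long cluster, has the lowest mean there in total RNA and has higher footprint levels than rpoB, rpoC1 and rpoC2.

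The footprint to total RNA ratio varied with gene length and spacing over the 22 members, given here as a description. Spearman's rho of the log2 ratio with gene length was 0.52 in HL and 0.50 in LL (n = 22 genes), and with the distance to the nearest gene on the same strand -0.69 in HL and -0.59 in LL. The genes share their libraries and clusters, and the total RNA counts over a span hold reads of unspliced and cotranscribed RNA. The 16 bases shared by rps3 and rpl22 lie in both spans.

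The nuclear-encoded partners of these genes were described from lists written from textbook knowledge. Of 8 genes for sigma factors and phage-type plastid polymerases, all tested, none was positive in the footprint comparison of HL with LL and 0 passed in either direction; the median was -0.21. SIG4 had the smallest p there, at -0.57 ± 0.35 (log2, SE), and SIG6, the most counted, was at -0.05 ± 0.25. In total RNA 3 of 8 were positive and 0 passed, with a median of -0.08; SIG4 was at -0.32 ± 0.25 and SIG6 at -0.18 ± 0.20. Relative to total RNA the median was -0.29 and 0 passed, with RPOTmp, a polymerase shared with mitochondria, at -0.63 ± 0.73. Within HL the median ratio of footprints to total RNA was 0.37 and within LL 0.43, and 0 passed. With the block, 3 were higher in LL and 0 lower, beside 9.13% and 7.17% of all genes. The 3 were SIG1 (1.03 ± 0.21, adjusted p = 0.00385), RPOTp (0.73 ± 0.21, adjusted p = 0.0236) and RPOTmp (1.35 ± 0.37, adjusted p = 0.0185).

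Of 14 nuclear-encoded proteins that bind the polymerase core, 0 passed in footprints, in total RNA or in footprints relative to total RNA, with medians of -0.08, 0.02 and -0.09. PAP11 had the smallest p in footprints, at -0.54 ± 0.30, PAP9, an iron superoxide dismutase, in total RNA, at 0.42 ± 0.28, and in footprints relative to total RNA, at -0.67 ± 0.50 (log2, SE). PAP8, the most counted, was at 0.001 ± 0.24 in footprints. Within HL, PAP2 was higher in footprints than in total RNA (1.16 ± 0.28, adjusted p = 0.0216). Within LL, PAP2 (1.08 ± 0.28, adjusted p = 0.0298) and PRIN2 (2.20 ± 0.66, adjusted p = 0.0499) were higher and 0 were lower. With the block PRIN2 also passed in HL (1.26 ± 0.30, adjusted p = 0.0103), and PAP12 was lower in HL (-1.06 ± 0.33, adjusted p = 0.0354) and LL (-1.22 ± 0.34, adjusted p = 0.0201). Of all genes, 4.72% were higher and 1.71% lower in HL, and 4.96% and 3.36% in LL. With the block these shares were 8.96% and 5.31% in HL, and 9.13% and 7.17% in LL.

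The 39 nuclear-encoded plastid ribosomal proteins had fitted footprint changes mostly of the other sign. Of 39, 32 were positive, with a median of 0.17 (HL against LL), and 0 passed, while 5340 of all 10759 genes were positive. PRPS20 had the smallest p, at 0.43 ± 0.25, and PSRP1, the most counted, was at -0.26 ± 0.36 (log2, SE). PRPL29 passed with the block alone, at 0.56 ± 0.16 (adjusted p = 0.0341), beside 1.39% of all genes that were higher in that fit. In total RNA 14 of 39 were positive and 0 passed, with a median of -0.07 and PSRP1 at -0.52 ± 0.33. Relative to total RNA 37 of 39 were positive with a median of 0.21, and 0 passed, while 6695 of all 12788 genes were positive. PRPS20 was at 0.50 ± 0.34 there. These 39 genes share their libraries, so the counts are not 39 separate observations. For the plastid-encoded members this comparison rested on LL total RNA library 1. Values with a library left out are not given for the 39. Within HL, PRPL10 was higher in footprints than in total RNA (1.08 ± 0.28, adjusted p = 0.0308) and 0 were lower. Within LL, PRPL10 was higher (0.98 ± 0.28, adjusted p = 0.0404) and 4 were lower, of which PRPL24 had the smallest p (-0.74 ± 0.20, adjusted p = 0.0351). Of all genes, 4.72% were higher and 1.71% lower in HL, and 4.96% and 3.36% in LL. With the block 2 of the 39 were higher and 2 lower in HL, beside 8.96% and 5.31% of all genes. In LL 1 was higher and 7 lower with the block, beside 9.13% and 7.17% of all genes. The difference between plastid-encoded and nuclear-encoded ribosomal proteins was not tested.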

How the data were processed

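Each of the 12 deposited files held raw counts for 1 library, made by the authors with featureCounts 1.5.0-p1, per the file headers. Per the file headers, strand setting 1 and Bowtie2 alignments were used for footprints, and strand setting 2 and subjunc alignments for total RNA. The submitters' processing notes name FastQC 0.11.5, cutadapt 1.9.1, Bowtie2 2.2.9, Subread 1.4.5 and TAIR10. Length equalled end minus start plus 1 for all 28775 genes, so counts cover whole spans with introns. Coordinates are TAIR10, and names came from a RefSeq table. Sequences were not analysed here, and 2 members are counted in the summaries but not reported singly.

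Repeat copies of a member were summed to 1 feature. After filterByExpr and TMM scaling, protein-coding genes were tested in R 4.3.3 by the quasi-likelihood method of edgeR 4.0.16, with Benjamini-Hochberg adjustment over all genes tested in a comparison and a threshold of 0.05. For footprints relative to total RNA, light and kind of library were fitted with their interaction. TMM factors were computed within each kind for the comparisons of light, and over all 12 libraries for footprints against total RNA. DESeq2 1.42.0 and other scalings, filters and left-out libraries were alternatives. The fits were tested on simulated counts. Per the labels, footprint libraries came from separate biological replicates; of total RNA the labels give numbers only, so the spread there may be technical.

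HL and LL libraries of the same number deviated together from their group means. The correlation across genes was 0.486, 0.446 and 0.303 in footprints for numbers 1, 2 and 3. In total RNA it was 0.439, 0.507 and 0.372. The main fits did not pair the numbers, and errors and p are from them unless the block is named. Fits with the number as a block took the numbers as pairs. Their results are given where they change a call and for some other values. In footprints, HL against LL, the SE of rpoC2 was 0.271 without the block and 0.120 with it. That of rps16 was 0.334 and 0.227. The numbers come from the sample titles.

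Per-library values are given for the members with most footprint counts in each role, those past a threshold, and those with extreme ratios; from each list, the member with the smallest p and the most counted one. The values of rpl14, rps2 and rps19 and the cluster values were added after they were seen. The members, lists and tests were chosen with earlier results of these data known. Tables and figures were made in Python 3.11.15 with pandas 2.3.3, numpy 2.4.6, scipy 1.17.1 and matplotlib 3.10.9.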

Additional observations from a re-analysis of the deposited data

How the results depend on the processing

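In footprints, HL against LL, 24 genes passed, and 38 did with DESeq2, 46 with every gene of at least 1 count, 5 with all annotated genes, and 7 to 21 with 1 library left out. No member passed in any of these. In total RNA 37 genes passed, 64 with DESeq2, 58 with every gene of at least 1 count, 22 without number 1, 63 with scaling on plastid genes, and 14 to 38 with 1 library left out; again 0 members passed. For footprints relative to total RNA the count of 0 genes became 2 with every gene of at least 1 count, and the median over members was 0.22 without number 1.

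With the replicate block, which pairs libraries of the same number, 196 genes passed in footprints (1 member, lower) and 129 in total RNA (0 members); without number 1 the block gave 55 and 124 genes. For footprints against total RNA in HL the block gave 1825 genes, with 6 members higher and 3 lower, and without number 1 it gave 1841 genes, with 7 higher and 2 lower. In LL it gave 2084 genes, with 8 members higher (6 without the block) and 1 lower, and 1907 genes, with 7 higher and 1 lower, without number 1. Beyond the members counted here the block, with all libraries in, changed no call of a member.

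For footprints against total RNA in HL, 823 genes, 3 members higher and 1 lower passed. DESeq2 gave 1206 genes, 6 members higher and 1 lower. Every gene of at least 1 count gave 1305 genes, 6 higher and 2 lower. All annotated genes gave 1008 genes, 1 higher and 0 lower, scaling on plastid genes 1288 genes (221 higher, 1067 lower), 1 member higher and 3 lower, and leaving out number 1 gave 695 genes, 4 higher and 0 lower. With 1 library left out the ranges were 243 to 859 genes, 0 to 5 higher and 0 to 1 lower. In LL, 1064 genes, 6 members higher and 0 lower passed. Every gene of at least 1 count gave 1502 genes, 8 higher and 1 lower, leaving out number 1 gave 839 genes, 2 higher and 0 lower, and scaling on plastid genes 2440 genes (231 higher, 2209 lower), 2 members higher and 1 lower. With 1 library left out the ranges were 241 to 1092 genes, 2 to 6 higher and 0 to 1 lower. Scaling on plastid genes moved the median of all genes to 0.15 in footprints, -0.23 in total RNA, 0.30 in footprints relative to total RNA, -0.49 in HL and -0.57 in LL; the members' medians became -0.07, -0.25, -0.03, 0.11 and 0.18.

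The members' summed share of protein-coding footprints in HL was 0.757 times that in LL, and 0.692 to 0.804 times with 1 library left out. With psbA left out of that total it was 0.877 times. As a share of plastid protein-coding counts outside the repeat it was 0.656 times. With psbA left out of the plastid total, that share was 4.415% ± 0.30 in HL and 4.983% ± 0.54 in LL (SD, n = 3 each). In total RNA the ratio of the protein-coding shares was 0.888 (0.819 to 1.00). Causes were not tested. Depth limits genes of few counts, such as rps16 (16 to 80 per footprint library) and rpl23 (5 to 52 per total RNA library).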

Other observations

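Genes with at least 100 counts in both footprint libraries of number 1 and 0 counts in the other 4 footprint libraries numbered 98. Of these, 27 were plastid genes, 26 of them in the inverted repeat, and 12 were nuclear protein-coding genes. No gene had at least 100 counts in all 4 footprint libraries of numbers 2 and 3 and 0 in both of number 1. All 8 repeat identifiers described above were among the 98, and none of the other 23 was.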
